A study of Homo sapiens with 6 samples.

Results

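The data described here are the chromatin accessibility peaks at *ST3GAL1* and at 6 other sialyltransferase genes, *ST3GAL2* to *ST3GAL6* and *ST6GAL1*, in the human multiple myeloma cell line MM.1S. The 7 genes are 7 of 20033 protein-coding genes in the annotation, and their windows, each the gene body plus 130 kb on both sides, held 191 of 89196 merged open chromatin regions. *ST3GAL1* was chosen by its peak calls in the very comparison described below, because 4 regions of its window were listed in every control library and in no treated one. Those 4 are therefore a description and were not tested, and over all merged regions 4.5% behaved in that way. The other 6 genes were taken as relatives of *ST3GAL1*.

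Omni-ATAC, a form of ATAC-seq in which a transposase cuts and tags accessible DNA, was applied to live-sorted MM.1S cells. In 3 libraries the cells had received CB-6644, an inhibitor of the RUVBL1/2 ATPases of chromatin remodelling complexes, at 120 nM for 72 h, and in 3 control libraries DMSO. All 6 libraries come from 1 unmodified cell line, and nothing in the labels tells whether replicates were separate cultures. The p-values below therefore compare arrangements of these 6 libraries only. The libraries listed 58563 to 79020 peaks. The DMSO libraries listed 65569 to 79020 and had background densities of 6.4 to 9.08 tags per kb, while the CB-6644 libraries listed 58563 to 71781 at 3.2 to 7.05 tags per kb, so the counts below are also given for lists of equal length. DMSO replicate 1 and CB-6644 replicate 2 stood apart, with shortest listed peaks of 91 bp and 65 bp, whereas in the other 4 libraries none was shorter than 131 bp. All 5 plasma cell promoters checked (*IRF4*, *PRDM1*, *XBP1*, *SDC1* and *TNFRSF17*) carried a peak in 6 of 6 libraries, those of *CD3E* and *ALB* in 0, and that of the monocyte gene *CD14* in 6.

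Sialyltransferases sit in the Golgi and transfer sialic acid from CMP-sialic acid to the ends of glycan chains on proteins and lipids. The enzymes encoded by the *ST3GAL* genes and by *ST6GAL1* all use a terminal galactose and differ in the carbon they attach to and in the chains they prefer. *ST3GAL1* and *ST3GAL2* act on galactose of mucin type O-glycans, *ST3GAL3*, *ST3GAL4* and *ST3GAL6* on lactosamine chains, including those that become selectin ligands, *ST3GAL5* makes the ganglioside GM3, and *ST6GAL1* caps N-glycans, among them those of immunoglobulins.

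The regions on which the results for the smaller members turn are shown here by the 101 bases around the strongest summit, from hg38, plus strand. Capitals mark a match to one of 10 searched strings, and a sequence without capitals held none in these 101 bases. The first was DMSO-only and lay 29.1 kb upstream of *ST6GAL1*, at chr3:186901402-186901502. The next 3 were the DMSO-only regions in or near *ST3GAL6* that lay outside exons, 112 kb and 29.3 kb upstream of its canonical start (chr3:98651745-98651845 and chr3:98733966-98734066) and 23.4 kb downstream (chr3:98786770-98786870). Next came the intronic DMSO-only region of *ARTN* in the *ST3GAL3* window (chr1:43934945-43935045). The last was the shared region of the *ST3GAL4* window whose rank differed most between groups, 136 kb downstream of that gene's start (chr11:126491245-126491345).
ST6GAL1, 29.1 kb upstream: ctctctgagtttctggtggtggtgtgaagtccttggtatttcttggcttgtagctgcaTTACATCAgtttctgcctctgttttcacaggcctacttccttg
ST3GAL6, 112 kb upstream: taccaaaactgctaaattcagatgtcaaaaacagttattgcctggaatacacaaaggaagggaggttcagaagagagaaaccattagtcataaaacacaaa
ST3GAL6, 29.3 kb upstream: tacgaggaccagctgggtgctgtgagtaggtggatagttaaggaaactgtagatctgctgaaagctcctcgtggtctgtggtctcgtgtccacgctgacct
ST3GAL6, 23.4 kb downstream: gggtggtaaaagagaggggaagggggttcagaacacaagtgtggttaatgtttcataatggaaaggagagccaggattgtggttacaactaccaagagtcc
ST3GAL3 window, ARTN intron: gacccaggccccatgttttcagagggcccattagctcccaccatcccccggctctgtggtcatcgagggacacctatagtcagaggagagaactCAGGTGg
ST3GAL4 window, KIRREL3 intron: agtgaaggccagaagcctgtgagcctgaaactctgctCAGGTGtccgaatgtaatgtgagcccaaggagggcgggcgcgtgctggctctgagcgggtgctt

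The *ST6GAL1* region held the composite ATF4-CEBP string TGATGNAA, here on the minus strand, which 3.98% of all regions and 12.7% of all DMSO-only regions held within 100 bp of their summit. The *ARTN* region and the *ST3GAL4* window region held the E-box CAGGTG, found in 27.7% of all regions and 22.4% of the DMSO-only ones. Over all 11 DMSO-only regions of the 7 windows, the 201 bases around the summit held ATF4-CEBP in 1, the CEBP half-site pair TTGCNNAA in 2 (9.22% of all regions) and CAGGTG in 2. The IRF string GAAANNGAA was in 0 of the 11, against 13.7% of all regions and 22.8% of the DMSO-only ones. The EICE string GGAANNGAA (7.8% of all regions), the MAF string TGCTGAC (5.31%), the AP-1 string TGANTCA (10.5%), the CRE TGACGTCA (0.664%), the NF-kB string GGNNTTTCC (4.51%) and the ETS string CCGGAAGT (1.28%) were also in 0. Both strands were searched, matches to different strings may overlap, and a match is a description only.

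For *ST3GAL6* the promoter is shown as well, because 2 of its 3 starts ranked in opposite directions by -log10 p, though not by fold enrichment (values below). From RefSeq (GRCh38.p14, plus strand), the first 200 bases of the promoter entry at the upstream start (chr3:98732012-98732211) had a GC content of 41.5%, and those of the entry at the canonical start (chr3:98763090-98763289) 42.5%.
ST3GAL6, upstream start: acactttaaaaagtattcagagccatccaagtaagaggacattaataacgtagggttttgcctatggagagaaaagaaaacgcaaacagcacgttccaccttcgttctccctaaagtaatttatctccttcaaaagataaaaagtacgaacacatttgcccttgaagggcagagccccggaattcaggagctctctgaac
ST3GAL6, canonical start: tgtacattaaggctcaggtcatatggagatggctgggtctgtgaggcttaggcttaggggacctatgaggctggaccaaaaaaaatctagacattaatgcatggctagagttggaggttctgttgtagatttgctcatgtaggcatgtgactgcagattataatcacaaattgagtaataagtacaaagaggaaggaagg

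Neither stretch held any of the 10 strings. The *ST3GAL6* entry starting at 98732451 had a GC content of 72.7% over its 300 bases with 35 CpG, against 45.7% and 1 CpG at the canonical start. RefSeq entries were matched by symbol for 5 of the 7 genes, 14 in all, and not for *ST3GAL1* and *ST3GAL2*.

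*ST3GAL1* (ENSG00000008513.17) lies on chromosome 8 at 133454848 to 133571926 of hg38, on the minus strand. Its window of 377 kb held 34 merged regions, of which 15 were shared by the 6 libraries. DMSO-only regions numbered 4 and CB-6644-only regions 0, the latter against 0.586% of all regions. By library the window held 21, 21 and 19 called regions with CB-6644 and 28, 27 and 24 with DMSO, or 20.3 ± 1.15 against 26.3 ± 2.08 (SD, n = 3 each). Every DMSO library thus listed more regions here than any CB-6644 library. Over the whole genome the 3 CB-6644 libraries covered 57226 to 60349 merged regions and the DMSO libraries 64577 to 71131. At 4 or more DMSO-only regions the gene stood among 124 of 20033 protein-coding genes (0.619%), which the choice of the gene fixed.

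**Figure D1:**
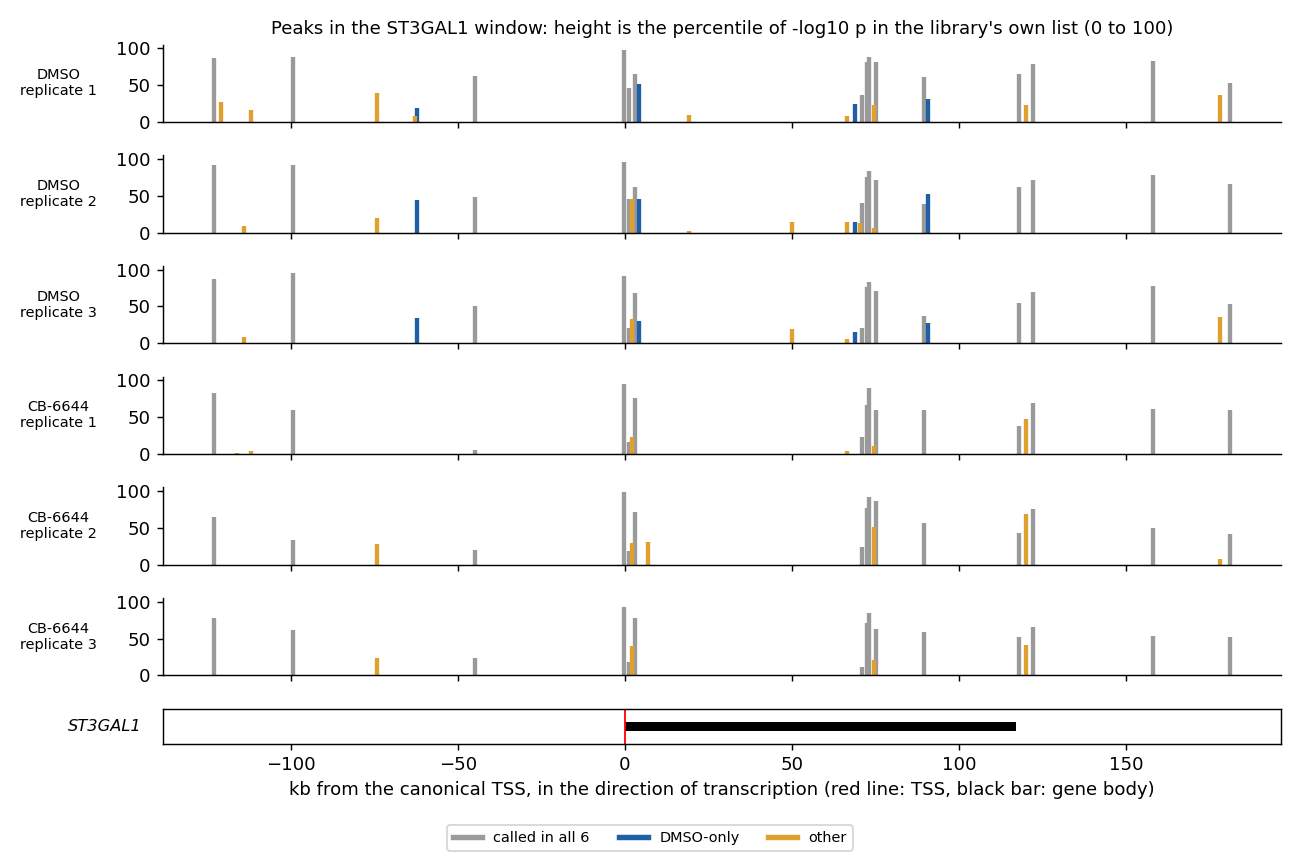
Peaks in the *ST3GAL1* window in each library, as kb from the canonical TSS on the x axis and the percentile of -log10 p in that library's own list on the y axis (100 is the strongest), coloured by the libraries that called the region. The 4 DMSO-only regions at 90.6, 68.9, 4.29 and -62.1 kb appear in the 3 upper tracks and in none of the lower 3, and the promoter at 0 is among the tallest lines in all 6.

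Of the 4 DMSO-only regions, 3 lay in introns of *ST3GAL1* and 1 upstream. The region 90.6 kb downstream of the start (133481146 to 133481422) reached 28, 67 and 40 tags at its summit in DMSO replicates 1 to 3, and 8.99-, 12.8- and 8.21-fold enrichment over local background. The region 62.1 kb upstream (133633637 to 133634390, intergenic) reached 17, 48 and 38 tags, at 8.78-, 13.1- and 10.9-fold. These 2 stood clear of a low surrounding background of 1.05 to 4.3 tags.

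The other 2 sat in richer surroundings. At 68.9 kb downstream (133502877 to 133503100) the summits held 67, 101 and 102 tags over a local background of 18.1, 38.9 and 37.9, a fold of 3.55, 2.56 and 2.65. At 4.29 kb downstream (133567498 to 133567706) they held 115, 173 and 144 tags over 24.3, 47.8 and 48.7, a fold of 4.59, 3.57 and 2.92. The lowest background in these 3 libraries was 0.583, 1.19 and 1.23 tags. In their own lists the 4 regions were of middle to low strength, between the 14.3 and the 52.5 percentile of -log10 p. In the CB-6644 libraries no peak was listed at any of the 4, which gives no level for them.

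Just outside the rule, 1 further region of the window was called in 3 DMSO libraries and 1 CB-6644 library, and 3 in 2 DMSO libraries and none of the others, against 3.55% and 4.55% of all regions. In the reverse direction, 1 region was called in 3 CB-6644 libraries and 1 DMSO library, and 0 in 2 and none, against 0.879% and 1.2%. One more DMSO-only region whose nearest coding TSS was that of *ST3GAL1* (133702241 to 133702653) lay 315 bp beyond the window's edge, at 19.0-, 11.9- and 14.8-fold. When each library was limited to the same number of strongest peaks, 2 regions of the window were DMSO-only and 2 were CB-6644-only, in place of 4 and 0, with 1857 and 1063 over the genome in place of 4016 and 523. In the 4 libraries whose shortest peak was above 100 bp the window held 6 and 1, with 7251 and 1566 over the genome. These 4 were then scaled to an equal background and limited to peaks with a -log10 p of at least 20. The window then held 3 and 1, with 3578 and 2343 over the genome. Without DMSO replicate 1 it held 6 and 1, with 5900 and 1014 over the genome. A rule over fewer libraries is easier to meet.

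The promoter of *ST3GAL1* was open in all 6 libraries. To compare regions across libraries, each of the 42089 regions called in all 6 was ranked within its library by -log10 p, from 0 for the weakest to 100 for the strongest. The canonical promoter (133571757 to 133572641) ranked 93.8, 97.3 and 90.6 with CB-6644 and 95.0, 93.2 and 87.2 with DMSO, so the groups overlapped. A second start in the gene, 72.5 kb downstream, also had peaks in 6 of 6 libraries, and the third, 82.2 kb downstream, in 0. A peak at the canonical promoter in all 6 libraries was found at 61.5% of protein-coding genes.

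Shared regions of the *ST3GAL1* window, promoters included, differed in both directions. Of the 15, 3 ranked lower in every CB-6644 library than in any DMSO library, 3 ranked higher in every one, and 9 overlapped, while 13.4% of all shared regions were lower and 13.3% higher. The widest separation was 99.3 kb upstream (133670866 to 133671416), with ranks of 44.0, 16.5 and 48.0 against 79.2, 86.2 and 92.7, a mean difference of -49.9. It was among the stronger shared regions with DMSO and below the middle with CB-6644. The region 158 kb downstream (133413727 to 133414075) ranked 46.1, 29.4 and 37.7 against 68.0, 63.1 and 66.1. The region 44.9 kb upstream (133616438 to 133617062) ranked 0.626, 7.99 and 7.14 against 35.4, 21.8 and 28.9, and was close to the weakest shared regions after treatment. All 3 were also lower without overlap when ranked by fold enrichment.

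The 3 regions that ranked higher lay inside the gene, each close to a DMSO-only region or a start. The region 3.06 kb downstream (133568507 to 133569148) ranked 65.7, 56.0 and 69.1 with CB-6644 against 38.2, 37.5 and 52.2. It lies between the promoter and the DMSO-only region at 4.29 kb. The region 89.4 kb downstream (133482366 to 133482677) ranked 44.1, 36.1 and 43.0 against 32.3, 12.9 and 14.6, beside the DMSO-only region at 90.6 kb. The region 73.2 kb downstream (133498444 to 133498868), 493 bp from the second start, ranked 85.6, 87.6 and 79.0 against 77.2, 72.0 and 74.7. By fold enrichment the first 2 stayed higher without overlap and the groups overlapped at the last. The region that holds the second start itself (133499278 to 133499746) ranked 53.2, 63.8 and 60.3 against 66.2, 59.6 and 64.5, and the groups overlapped. The strongest distal shared region, 123 kb upstream, ranked 76.4, 46.6 and 70.1 against 76.2, 86.0 and 81.3 and overlapped. Regions of 1 window were thus ranked in opposite directions, the 3 lower ones intergenic and the 3 higher ones inside the gene. The median difference over the 15 was -2.47, against 0.158 over all shared regions.

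**Figure D2:**
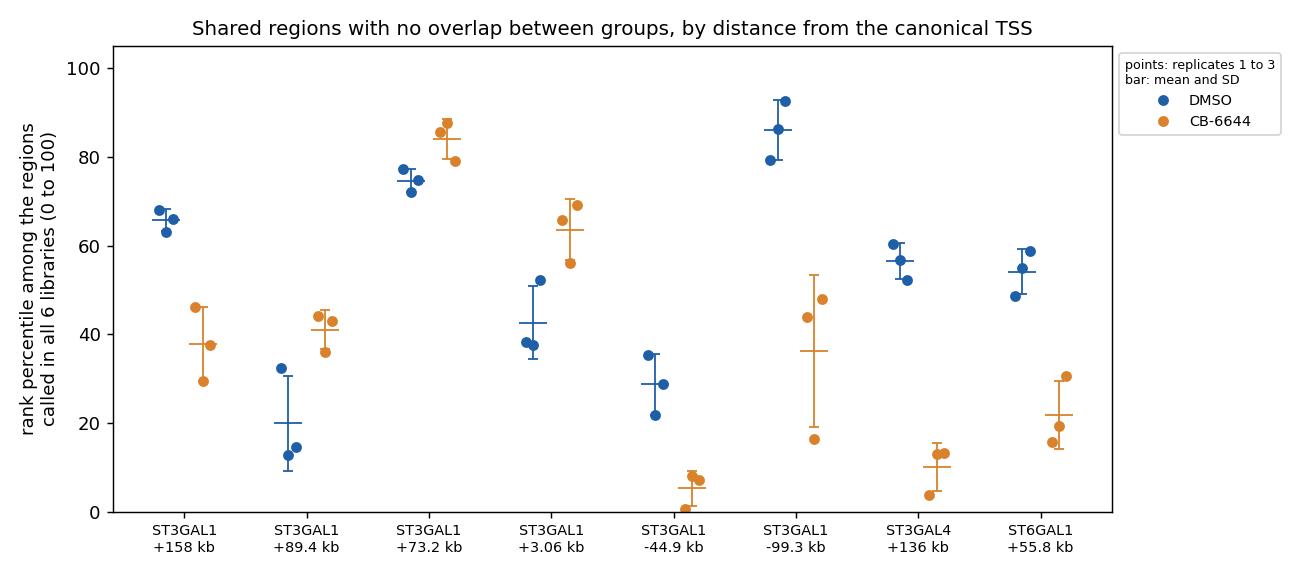
Rank percentile among the regions called in all 6 libraries (y axis) of the 6 *ST3GAL1* window regions whose groups do not overlap, and of the shared region with the widest difference in each of the *ST3GAL4* and *ST6GAL1* windows, labelled by kb from the canonical TSS. Points are replicates and bars the mean and SD (n = 3). The CB-6644 points lie wholly below the DMSO points at 5 of the 8, most widely at -99.3 kb of *ST3GAL1*.

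Together the other 6 genes had 157 regions, of which 87 were shared by the 6 libraries, 7 were DMSO-only and 0 were CB-6644-only. Over all merged regions 4.5% were DMSO-only and 0.586% CB-6644-only. The 7 DMSO-only regions fell to *ST3GAL6* (4), *ST3GAL3* (2) and *ST6GAL1* (1), and *ST3GAL2*, *ST3GAL4* and *ST3GAL5* had 0. At least 1 DMSO-only region was found in the windows of 35.1% of protein-coding genes and at least 1 CB-6644-only region in 8.5%. Of the 87 shared regions, 19 ranked lower and 9 higher in every CB-6644 library, against 13.4% and 13.3% of all shared regions. Without DMSO replicate 1, the 6 windows held 12 DMSO-only and 3 CB-6644-only regions in place of 7 and 0. The genome then held 5900 and 1014 in place of 4016 and 523. With equal numbers of strongest peaks the 6 windows held 4 and 3, with 1857 and 1063 over the genome.

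**Figure D3:**
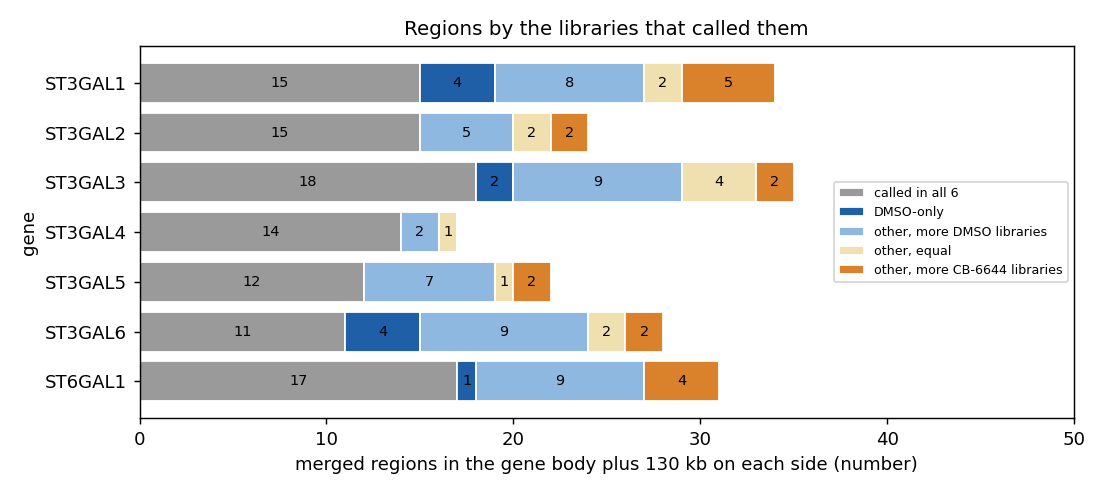
Merged regions in each gene's window (x axis, number) split by the libraries that called them. *ST3GAL1* and *ST3GAL6* have 4 DMSO-only regions each, *ST3GAL2*, *ST3GAL4* and *ST3GAL5* have 0, and no gene has a CB-6644-only region.

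*ST3GAL6* (ENSG00000064225.13, chromosome 3, 98732236 to 98821201, plus strand) was most like *ST3GAL1* in its number of DMSO-only regions. Its window held 28 regions, 11 of them in all 6 libraries, and 15, 16 and 17 called regions with CB-6644 against 21, 23 and 24 with DMSO. The groups did not overlap. Over the whole genome they did not overlap either, at 57226 to 60349 merged regions with CB-6644 against 64577 to 71131 with DMSO. The DMSO-only regions lay 112 kb upstream (10, 22 and 21 summit tags), 29.3 kb upstream (47, 57 and 45), 23.4 kb downstream (13, 22 and 27) and 54.4 kb downstream, the last in an exon of *DCBLD2* that overlaps the gene (10, 24 and 16). Their percentiles in the DMSO lists ran from 6.51 to 36.9. At *ST3GAL1* they ran from 14.3 to 52.5. In the 4 libraries whose shortest peak was above 100 bp, the *ST3GAL6* and *ST3GAL1* windows held 6 DMSO-only regions each. The genome then held 7251 in place of 4016. When these 4 were scaled to an equal background and kept only peaks with a -log10 p of at least 20, the windows held 0 and 3. The genome then held 3578. Just outside the rule, 2 regions were called in 3 DMSO and 1 CB-6644 library, 1 in 2 DMSO libraries and no CB-6644 library, and 2 in 2 CB-6644 libraries and no DMSO library. Over all regions the shares of these 3 kinds were 3.55%, 4.55% and 1.2%.

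All 3 annotated starts of *ST3GAL6* carried peaks in 6 of 6 libraries. The upstream start, within the region 98732120 to 98733300 centred 30.6 kb before the canonical one, ranked 52.3, 71.2 and 61.9 with CB-6644 and 52.0, 45.8 and 37.3 with DMSO, a difference of 16.8. It was higher in each CB-6644 library, by a margin of under 1 rank point between the nearest of the 2 groups. By fold rank the difference there was 19.2, and the groups overlapped. The canonical start (98763140 to 98763695) was among the weakest shared regions, at 1.14, 7.73 and 8.47 against 9.78, 8.9 and 18.3, which is -6.54 on average (two-sided exact permutation test, p = 0.1). With 3 libraries against 3, 0.1 is the smallest p this test can give. Ranked by fold enrichment the difference was 0.359, so the direction at the canonical start rests on the measure. The third start, 7.71 kb downstream, lay beside the strongest of the promoter regions (98770324 to 98771053), which ranked between 75.5 and 85.0 with CB-6644 and between 77.7 and 83.8 with DMSO. With this region in place of the canonical one the groups overlapped (difference -1.13, p = 0.7, exact permutation test).

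**Figure D4:**
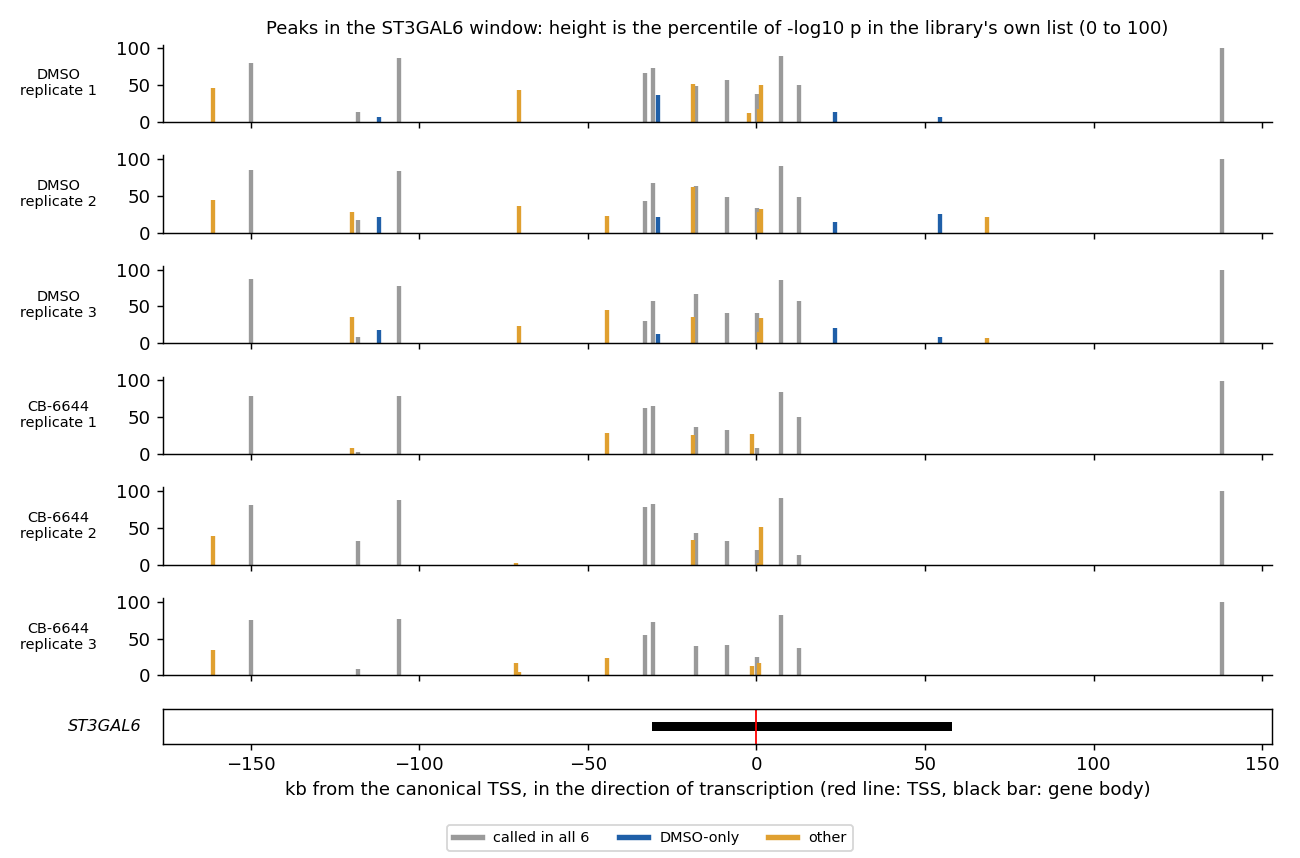
Peaks in the *ST3GAL6* window in each library, as kb from the canonical TSS on the x axis and the percentile of -log10 p in that library's own list on the y axis. The 4 DMSO-only regions are short lines at -112, -29.3, 23.4 and 54.4 kb, none above the 36.9 percentile, and the tallest line in all 6 tracks, at 138 kb, is the *DCBLD2* promoter.

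*ST6GAL1* (ENSG00000073849.16, chromosome 3, 186930325 to 187078553, plus strand) had 31 regions in its window, with 24, 22 and 22 called with CB-6644 and 26, 27 and 26 with DMSO. Its 1 DMSO-only region (186901340 to 186901597) had the highest folds of the 11, at 21.8, 14.7 and 15.2, and 34, 34 and 36 summit tags. Of 7 clusters of starts, 4 carried peaks in all 6 libraries. The main promoter ranked 87.9, 85.6 and 83.0 with CB-6644 against 89.9, 91.3 and 93.8, lower in every treated library by -6.18 on average (exact two-sided permutation test, p = 0.1), while the fold-based rank differed by 2.8. A start within the gene, 55.8 kb downstream, separated further, with 15.7, 19.3 and 30.5 against 48.7, 55.0 and 58.7, and was lower by fold rank too. In the other direction, the region 142 kb downstream, near the gene's end, ranked 76.9, 67.4 and 74.1 against 56.3, 52.0 and 61.9, and was also higher by fold rank. The window thus held elements that ranked lower and others that ranked higher by both measures.

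*ST3GAL4* (ENSG00000110080.20, chromosome 11, 126355640 to 126440344, plus strand) had no DMSO-only region among 17, yet its window held the widest difference in rank among the other 6 genes. The region 136 kb downstream, in an intron of *KIRREL3* (126491113 to 126491576), ranked 3.74, 13.0 and 13.3 with CB-6644 and 60.3, 56.8 and 52.3 with DMSO, a difference of -46.4. The CB-6644 values were below every DMSO value by fold rank as well, with a difference of -54.0. Of the 14 shared regions of the window, 4 ranked lower in every CB-6644 library and 1 higher. Over all shared regions the shares were 13.4% and 13.3%. The promoter itself was weak, at 21.0, 14.6 and 6.49 against 8.59, 22.5 and 14.5, and the groups overlapped (difference -1.12, p = 0.8, exact two-sided permutation test). Of 4 start clusters, the canonical one had a peak and the other 3 had none.

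*ST3GAL2* (ENSG00000157350.13, chromosome 16, 70375977 to 70439237, minus strand) had 19, 17 and 20 called regions with CB-6644 against 20, 19 and 20, among 24, and the groups overlapped. Its promoter ranked 93.3, 87.9 and 92.2 against 88.7, 91.5 and 92.7 and the groups overlapped (difference 0.159, p = 1.0, exact two-sided permutation test). Of its 15 shared regions, 5 ranked lower in every CB-6644 library and 1 higher, against 13.4% and 13.3% of all shared regions. The lower ones included the region 55.6 kb upstream, in an intron of *COG4*, at 26.9, 25.9 and 26.6 against 57.7, 39.5 and 48.4, and the intronic region 34.8 kb downstream, at 52.0, 35.6 and 56.3 against 59.6, 60.9 and 63.0. These 2 and the region 37.7 kb upstream were lower by fold rank too, whereas the region at *EXOSC6*, 188 kb downstream, was higher by fold rank.

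*ST3GAL3* (ENSG00000126091.21, chromosome 1, 43705824 to 43931165, plus strand) has the largest window, 485 kb, with 35 regions, and 23 called in each CB-6644 library against 27, 30 and 26. Its 2 DMSO-only regions lay past the gene's end, in an intron of the neurotrophic factor gene *ARTN* (43934722 to 43935045) with 43, 54 and 46 summit tags, and at an exon of the galactosyltransferase gene *B4GALT2* (43979829 to 43980108) with 32, 34 and 30. The second was one of the weakest peaks of DMSO replicate 3, at the 0.97 percentile. The promoter ranked 96.0, 99.6 and 96.8 against 97.5, 95.7 and 94.8, the strongest of the 7, and the groups overlapped (difference 1.49, p = 0.4, exact two-sided permutation test). Within the gene, the intronic region 125 kb downstream ranked 33.4, 43.8 and 33.7 against 57.3, 62.0 and 69.3, and the one 146 kb downstream 59.3, 48.8 and 59.3 against 41.5, 34.2 and 40.5. By fold rank the first overlapped and the second stayed higher.

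*ST3GAL5* (ENSG00000115525.18, chromosome 2, 85837120 to 85905199, minus strand) had 22 regions, 14, 18 and 15 called with CB-6644 against 18, 17 and 16, and no group-only region. It was the 1 member whose main promoter ranked higher in every CB-6644 library, at 85.2, 84.7 and 88.5 against 83.3, 83.8 and 79.7 (difference 3.89, p = 0.1, exact two-sided permutation test). The distal region 181 kb downstream ranked lower, at 26.1, 35.0 and 31.2 against 55.2, 57.6 and 65.5. By fold rank both overlapped.

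**Figure D5:**
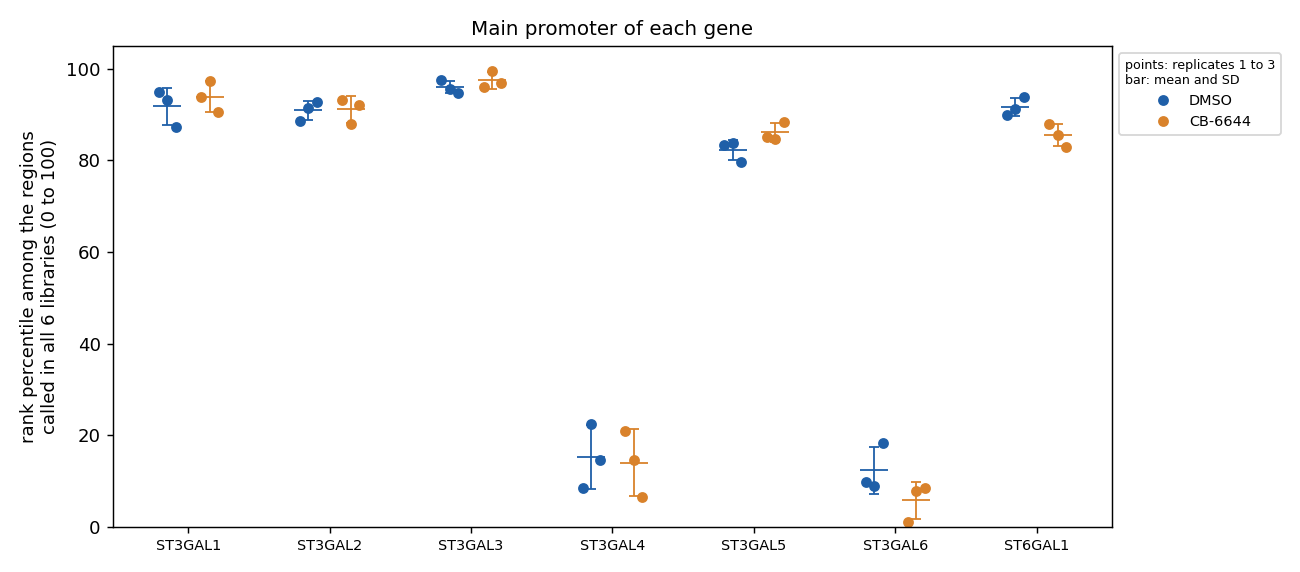
Rank percentile of the region at each gene's canonical promoter (y axis) among the regions called in all 6 libraries. Points are replicates and bars the mean and SD (n = 3). The promoters of *ST3GAL4* and *ST3GAL6* lie below 23 and the other 5 above 79 in every library, and the groups are apart at *ST3GAL5*, *ST3GAL6* and *ST6GAL1*.

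Across the 7 genes, 28 clusters of protein-coding starts were annotated and 13 carried a peak, each of the 13 in all 6 libraries, so none of them was specific to a group in these lists. In order of the median rank of the main promoter, *ST3GAL3* (96.4), *ST3GAL1* (93.5), *ST3GAL2* (91.8), *ST6GAL1* (88.9) and *ST3GAL5* (84.3) stood above the median of 79.7 for 10960 promoters, and *ST3GAL4* (14.5) and *ST3GAL6* (8.69) far below it. The ranges over libraries of neighbours in this order overlapped, except between *ST3GAL5* and *ST3GAL4*. Among those 10960 promoters 7.21% were lower and 6.45% higher in every CB-6644 library. Of the 6 genes tested, 2 were lower and 1 higher, each at the smallest possible p of 0.1 in the exact permutation test. With the strongest region at any coding start in place of the canonical one, *ST3GAL6* no longer stood apart (-1.13, exact permutation p = 0.7). The 3 differences were 3.89 to 6.54 rank points in size. In all 7 windows, 22 of 102 shared regions ranked lower and 12 higher, against 13.4% and 13.3% of all shared regions.

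Other genes of the pathway were described by list. Of 13 other sialyltransferase genes, 7 had a promoter peak in all 6 libraries, with 0 lower and 0 higher, and 6 had 1 DMSO-only region each, namely *ST6GALNAC3*, *ST6GALNAC5*, *ST8SIA1*, *ST8SIA4*, *ST8SIA5* and *ST8SIA6*. Beside every list here stand the 35.1% of all genes with a DMSO-only region and the 8.5% with a CB-6644-only one. These are shares of genes, and over all merged regions 4.5% were DMSO-only and 0.586% CB-6644-only. Of 5 genes for the synthesis and transport of CMP-sialic acid, all had an open promoter and 2 had DMSO-only regions, *SLC35A1*, the Golgi transporter, with 2 and *NANS* with 1. The promoter of *GNE*, the entry enzyme of the pathway, ranked 87.5, 88.0 and 89.3 against 90.9, 93.4 and 90.6. It was the 1 lower promoter of the 5, and 0 were higher, beside 7.21% and 6.45% of all promoters. One CB-6644-only region fell in the overlapping windows of *CMAS* and *ST8SIA1* and one in that of *NANP*. Of 4 sialidase genes, *NEU1* had 1 DMSO-only region.

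Of 17 enzymes that build mucin type O-glycan chains, 10 had at least 1 DMSO-only region (13 regions in all) and 0 had a CB-6644-only one. Over all genes the shares were 35.1% and 8.5%. A share of genes depends on the number of regions per window, here from 8 at *GCNT4* to 31 at *GCNT1*. It is not a share of regions, and over all merged regions 4.5% were DMSO-only and 0.586% CB-6644-only. *GALNT7* had 3 and *GALNT6* had 2. The promoter of *GALNT5*, a transferase that starts such chains, ranked 23.4, 37.4 and 38.1 with CB-6644 against 75.7, 82.6 and 89.7 with DMSO, a difference of -49.7, beside the -49.9 of the widest at *ST3GAL1*. That of *GALNT3* ranked 70.5, 64.2 and 69.5 against 79.7, 83.1 and 81.7, and that of *GALNT4* was higher, at 75.5, 64.9 and 72.2 against 61.8, 62.3 and 64.5. Of the 13 promoters of this list with a peak in all 6 libraries, 2 were thus lower and 1 higher. Among all 10960 promoters the shares were 7.21% and 6.45%. At the rest the groups overlapped, among them *GALNT2* (mean 92.4 with CB-6644 against 78.9) and *GALNT7* (65.8 against 54.2). Among 3 selectin ligand genes, *SELPLG*, the P-selectin ligand, had 2 DMSO-only regions. Its promoter ranked 82.3, 79.0 and 74.0 with CB-6644 against 77.0, 72.8 and 64.8, and the groups overlapped. The promoter of the fucosyltransferase gene *FUT4* ranked 78.8, 78.3 and 73.8 against 89.0, 85.3 and 88.6. These were the 2 promoters of the list called in all 6 libraries, with 1 lower and 0 higher. No list was tested, and the lists' median of DMSO-only regions was 0 in 4 of 5 and 1 for the O-glycan enzymes, against 0 over all genes.

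The genes on other chromosomes whose numbers of called regions by library were most like those of *ST3GAL1*, by the summed absolute difference over the 6 libraries, were *GFOD1* (3), *SH2D7* (4) and *SRGAP2* (4). *GFOD1* had 21, 22 and 19 regions with CB-6644 and 27, 26 and 24 with DMSO, and 3 DMSO-only regions. *SH2D7* also had 3 and *SRGAP2* had 1.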

How the data were processed

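Omni-ATAC was performed on 6 MM.1S libraries, 3 per group, grouped by their labels. Per the submitters' processing notes, the authors used Bowtie2 (2.4.2) for alignment to hg38 and MACS3 (3.0) for peaks, which were called library by library. The deposited peak lists give for each peak a fold enrichment (a ratio over local background), -log10 p and -log10 q values, an integer score and the offset of the summit. Scores were not used. Depth is not stated in the lists, and an unlisted region has no value. Reads and read counts were not analysed here, so no count model was used.

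Peaks overlapping by at least 1 bp were merged. A group-only region had a peak in every library of 1 group and in no library of the second, and a shared region in all 6. The strongest peak stood for a region. Windows and starts came from GENCODE release 44, promoters being 1000 bp on each side of a TSS, with TSSs of protein-coding transcripts clustered. Summit tags and background were solved from fold and p under the Poisson model of the caller, which gave a solution for 94.1 to 99.5% of peaks, and all below a -log10 p of 300. Main promoter ranks were compared by an exact two-sided permutation test over libraries for the other 6 genes, with no test for *ST3GAL1*. The code was tested on simulated data (Python 3.11.15, scipy 1.17.1).

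Named genes were the members, every group-only region of their windows, their promoters and strongest distal region, and the list genes with a group-only region; further shared regions and the promoters of *GNE* and *FUT4* were named after their values were seen. Members, lists and motif strings were chosen with earlier results of these data known. Same-numbered replicates did not deviate together (correlations -0.441, -0.186 and 0.288 over 42089 shared regions), so numbers were not used as pairs. The 21 listed alternatives were other peak thresholds, list lengths, overlaps, windows, measures, a replicate block and each library left out. One region is not reported here.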

Additional observations from a re-analysis of the deposited data

How the results depend on the processing

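Counts of group-only regions changed under several alternatives. Over the genome the main rule gave 4016 DMSO-only and 523 CB-6644-only regions. With at least 2 of 3 libraries it gave 8070 and 1589. In the libraries whose shortest peak was above 100 bp it gave 7251 and 1566. With equal numbers of strongest peaks, the DMSO-only and CB-6644-only counts were 2 and 2 for *ST3GAL1* and 4 and 3 for the other 6 genes. With the 20000 strongest peaks the DMSO-only counts were 2 and 3. With at least 2 of 3 libraries they were 7 and 13, and the other 6 genes had 4 CB-6644-only. In the libraries whose shortest peak was above 100 bp, *ST3GAL1* had 1 CB-6644-only region and 6 lower shared regions, and the other 6 genes 16 DMSO-only and 4 CB-6644-only. With these libraries also scaled to equal background and a -log10 p of at least 20, there was 1 CB-6644-only region for *ST3GAL1*, and the other 6 genes had 3 DMSO-only and 3 CB-6644-only. The other 6 genes had 3 DMSO-only regions by gene body alone and 4 by nearest coding TSS. Leaving out 1 library, DMSO-only counts ran from 4 to 6 (*ST3GAL1*) and 7 to 12 (others), CB-6644-only from 0 to 1 and 0 to 3, and lower shared regions of *ST3GAL1* from 4 to 5. Promoter differences then ran from -0.95 to 1.78 for *ST3GAL2* and from -4.61 to 2.66 for *ST3GAL4*, so both changed sign. By rank of fold enrichment the differences were 2.44 (*ST3GAL4*), 0.359 (*ST3GAL6*) and 2.8 (*ST6GAL1*), and by centred log2 fold 0.04 (*ST3GAL4*) and 0.08 (*ST6GAL1*), each reversed; the cause was not tested. With the strongest region at any coding start, *ST3GAL6* differed by -1.13 (exact permutation p = 0.7). With the replicate block the promoter differences were unchanged (-6.54 for *ST3GAL6*, -6.18 for *ST6GAL1*, 3.89 for *ST3GAL5*, each p = 0.25 by exact sign flips, the smallest that test allows), and no call changed. A region just below the caller's threshold in a library is counted as absent there.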
